A study of Mus musculus with 6 samples.

Results

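The small leucine-rich proteoglycans are the 9 genes Bgn, Dcn, Lum, Fmod, Ogn, Prelp, Aspn, Omd and Chad, read here as every probe whose symbol in the annotation of the bead array named one of them. They had 13 of the 25697 probes (9 of 16593 named genes): Ogn had 3, Dcn and Fmod had 2 each, and the other genes had 1 each. A probe counted as detected on an array when its detection p-value was under 0.05, and a test was run for the 7 probes, of 6 genes, that 3 or more of the 6 arrays detected. RNA came from 6 mouse brain tumours grown from transplanted cells in SCID mice, hosts without mature lymphocytes that keep vessels and macrophages of their own. The 3 tumours called Olig2_het had the genotype Olig2cre/+;p53fl/fl;hEGFRvIII, with cre in place at 1 Olig2 allele, and the 3 called Olig2_null had Olig2cre/cre;p53fl/fl;hEGFRvIII, with cre at both. The floxed p53 alleles, cre from the Olig2 locus and the human EGFRvIII transgene, a truncated EGF receptor, were thus shared by both groups. The labels name no promoter for the transgene or give the number of cell lines behind each genotype, so a p-value here reflects only how much these tumours varied, which may be technical. Replicates 1, 2 and 3 of each genotype were labelled 45, 50 and 47 days of age, but the deposited tables exchange numbers 1 and 3 within both genotypes, which leaves 45 and 47 days uncertain. The comparison asks which of these matrix genes differ when the second Olig2 allele also carries cre.

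Small leucine-rich proteoglycans are secreted proteins built of leucine-rich repeats that bind collagen fibrils and growth factors. Many carry sugar chains: chondroitin or dermatan sulfate on biglycan (Bgn) and decorin (Dcn), keratan sulfate on lumican (Lum) and fibromodulin (Fmod). In brain, Dcn, Lum and Ogn are known from fibroblasts of the meninges and around vessels. Soluble biglycan is a ligand of the innate receptors Tlr2 and Tlr4, and decorin is known to bind the EGF receptor and TGF-beta.

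Upstream sequence is shown for Bgn, because it was the family gene whose probe passed the test, and for Prelp, which like the brighter Dcn probe was detected on every array without passing, and for which an entry was matched. RefSeq promoter entries (GRCm38.p6) were found for 7 of the 9 genes, and Dcn and Lum were not matched. Each sequence is the 250 bases before the gene's start, and capitals mark matches to any of 4 motifs, searched on both strands. The E box is written CANNTG and is the kind of site that basic helix-loop-helix factors such as Olig2 recognise. The GC box is written GGGCGG and is known as a site of the Sp1 family of general activators. The TATA box, a core element where the general transcription machinery assembles, was searched as TATAAA. The AP-1 site, recognised by dimers of Fos and Jun proteins, was searched as TGANTCA.
Bgn, chrX:73483351-73483600, plus strand: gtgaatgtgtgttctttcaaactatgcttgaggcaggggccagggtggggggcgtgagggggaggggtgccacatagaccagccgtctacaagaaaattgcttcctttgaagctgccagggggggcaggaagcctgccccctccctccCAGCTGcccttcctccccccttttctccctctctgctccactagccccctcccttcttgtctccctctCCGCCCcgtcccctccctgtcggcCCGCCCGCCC
Prelp, chr1:133921402-133921651, minus strand: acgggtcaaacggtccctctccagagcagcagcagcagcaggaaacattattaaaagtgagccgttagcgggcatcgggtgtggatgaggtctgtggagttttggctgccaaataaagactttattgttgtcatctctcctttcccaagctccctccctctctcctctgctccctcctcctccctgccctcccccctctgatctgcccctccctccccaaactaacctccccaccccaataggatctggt
The Bgn window held 1 E box, at positions -102 to -97 from the start, and 3 GC boxes, of which those at -10 to -5 and -6 to -1 overlap. The Prelp window held none of the motifs. An E box lay in 66.2% and a GC box in 32.7% of the 32851 windows of this length in the table, so the matches describe the letters and locate no bound site. Among the other family windows, Ogn held 3 E boxes, Fmod, Aspn and Chad 1 each and Omd none. Ogn and Aspn each held 2 TATA boxes (those of Ogn overlap), Chad held 1 TATA box and 1 GC box, and no AP-1 site was found in any of the 7. A TATA box lay in 12.4% and an AP-1 site in 6.75% of all windows.

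The arrays detected between 53.4% and 57.6% of all probes. Over tested probes, Olig2_null replicate 3 correlated with the Olig2_het tumours at r = 0.914 to 0.941. The other Olig2_null tumours did so at 0.766 to 0.890. Replicate 3 correlated with Olig2_null replicates 1 and 2 at 0.886 and 0.928, and replicates 1 and 2 with each other at 0.912. The single Olig2 probe read between 7.13 and 7.85 in Olig2_het and between 5.86 and 6.44 in Olig2_null on the log2 scale, a difference of -1.34 ± 0.30 (SE, n = 3 per group, limma adjusted p = 0.0555). Whether that probe lies in the part of the gene lost with the cre allele is not known here.

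Bgn, a class I family member that binds collagen and TGF-beta, was the only one of the 7 tested probes of the family to pass the test, and it rose in the Olig2_null tumours. The background-corrected, normalized log2 intensities of its probe (ILMN_2964042) were 10.65, 10.16 and 10.01 in Olig2_het replicates 1 to 3. They were 14.40, 13.70 and 14.01 in Olig2_null replicates 1 to 3. All 3 Olig2_null tumours lay far above all 3 Olig2_het tumours, and the range within a genotype was 0.64 in Olig2_het and 0.69 in Olig2_null. The difference was 3.76 ± 0.29 (SE, n = 3 per group, 95% interval 3.07 to 4.45), a 13.6-fold higher intensity (limma adjusted p = 0.00557). Over all 14606 tested probes 4.42% passed in either direction, 2.65% higher and 1.77% lower in Olig2_null. Groups that do not overlap were common on these arrays, at 31.2% of tested probes (15.8% higher and 15.4% lower in Olig2_null), and Bgn was the only tested family probe with this pattern. In bulk tumour RNA a change in the number of cells of a type and a change in RNA per cell cannot be told apart. The signals as deposited already showed the gap, from 1087 to 1677 in Olig2_het and from 14437 to 21758 in Olig2_null. Without Olig2_het replicate 2 the difference was 3.70 and the call was lost (adjusted p = 0.0601), while leaving out any other tumour kept it (adjusted p = 0.0036 to 0.0329). Olig2_null replicate 3, which resembled the Olig2_het tumours over all probes, did not do so for Bgn, and without it the difference was 3.77.

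Dcn, the closest relative of Bgn in class I, was spread over the Olig2_null tumours rather than shifted. Its brighter probe (ILMN_2747959) read 9.57, 9.74 and 10.83 in Olig2_het and 5.74, 8.56 and 11.53 in Olig2_null, by replicate number. Of all 6 tumours, Olig2_null replicate 1 was the lowest and replicate 3 the highest, so the groups overlapped. The difference was -1.44 ± 1.30 (SE, n = 3 per group, 95% interval -4.51 to 1.63, limma adjusted p = 0.547). The other Dcn probe (ILMN_2596346) had the same order within Olig2_null, at 5.23, 6.11 and 9.59, against 7.44, 7.11 and 8.50 in Olig2_het, and differed by -0.71 ± 1.07 (SE, adjusted p = 0.729). Single tumours decided these values. Without Olig2_null replicate 3 the probes differed by -2.90 (adjusted p = 0.0685) and -2.02 (adjusted p = 0.0457, past the threshold), and without Olig2_null replicate 1 by -0.0022 and 0.16. Aspn (asporin), the remaining class I gene, was not detected on any array, with log2 intensities between 4.47 and 4.73.

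The class II genes were led by Prelp, which encodes a protein that anchors basement membranes to connective tissue. Prelp read 9.14, 10.52 and 10.04 in Olig2_het and 11.91, 10.97 and 9.88 in Olig2_null. Olig2_null replicates 1 and 2 were above every Olig2_het tumour, and replicate 3 lay among them. The difference was 1.02 ± 0.57 (SE, n = 3 per group, 95% interval -0.32 to 2.37, limma adjusted p = 0.319), and it was 1.54 without Olig2_null replicate 3 and 0.53 without Olig2_null replicate 1. Omd (osteomodulin, a keratan sulfate proteoglycan of bone) was dim. It was detected on 1 Olig2_het array and on all 3 Olig2_null arrays, reading 4.92, 5.18 and 5.48 against 7.64, 5.41 and 6.11. Only Olig2_null replicates 1 and 3 exceeded the Olig2_het range, and the difference of 1.20 ± 0.55 (SE, 95% interval -0.09 to 2.49) did not pass (adjusted p = 0.228). Without Olig2_null replicate 1 it was 0.57.

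Fmod and Lum, which regulate the assembly of collagen fibrils, were at the edge of detection. The brighter Fmod probe (ILMN_2999762) was detected on 2 arrays of each genotype and read 5.19, 5.90 and 6.66 in Olig2_het and 8.33, 5.13 and 5.82 in Olig2_null. Olig2_null replicate 1 alone was high, and without it the difference turned from 0.51 ± 0.82 (SE, limma adjusted p = 0.748) to -0.44. The other Fmod probe was detected on 1 array of each genotype, Olig2_het replicate 3 and Olig2_null replicate 1. The Lum probe was also detected on 1 array of each genotype, at 5.92 in Olig2_het replicate 3 and 6.93 in Olig2_null replicate 3, and between 4.87 and 5.27 on the other arrays. For Lum these are the arrays on which both Dcn probes were brightest in their groups.

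Ogn (osteoglycin or mimecan, class III) varied most within the Olig2_het tumours. Its brightest probe (ILMN_2859613) read 4.97, 6.80 and 8.90 in Olig2_het and 5.28, 4.83 and 7.05 in Olig2_null, and it was detected on 2 Olig2_het arrays and on Olig2_null replicate 3. The groups overlapped throughout, and the difference was -1.17 ± 1.01 (SE, 95% interval -3.56 to 1.21, limma adjusted p = 0.522). Leaving out Olig2_het replicate 3 gave -0.17, and leaving out Olig2_het replicate 1 gave -2.13. The other 2 Ogn probes were not detected on any array. Chad (chondroadherin, class IV), a cartilage protein, was detected only on Olig2_null replicate 2, at 5.91. Its values of 4.64 to 4.85 in Olig2_het and 4.93 to 5.91 in Olig2_null do not overlap, but 5 of the 6 values are undetected and the probe was not tested.

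**Figure D1:**
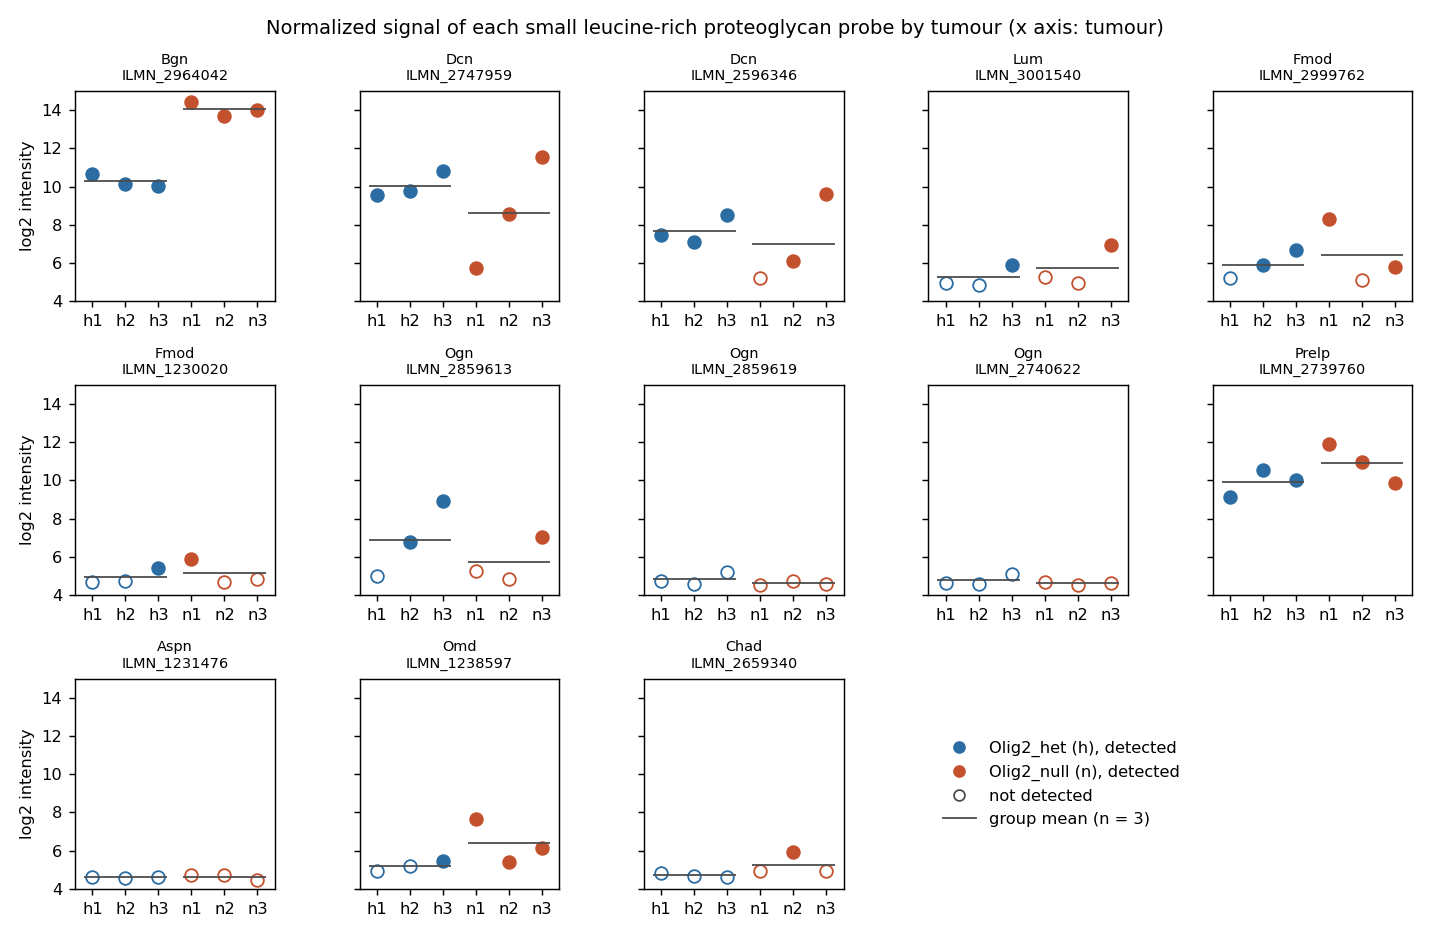
Normalized log2 intensity (y axis) of each of the 13 probes in each tumour (x axis; h for Olig2_het, n for Olig2_null, with the replicate number), filled where detected and open where not, with a line at each group mean. The Bgn values of the 3 Olig2_null tumours, 13.70 to 14.40, all lie above the Olig2_het values, whereas the groups overlap for Dcn and Prelp and most other probes lie near the floor.

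The change of Bgn was set against that of every other tested family gene. The genotype difference of Bgn exceeded that of Dcn by 5.20, of Ogn by 4.94, of Fmod by 3.26, of Prelp by 2.74 and of Omd by 2.57 on the log2 scale. In each of the 5 comparisons the log2 ratio of the Bgn probe to the other probe was higher in all 3 Olig2_null tumours than in any Olig2_het tumour. Each gave p = 0.10 in a two-sided exact permutation test, the smallest value that 3 tumours against 3 allow, so the design cannot reach 0.05 here (Benjamini-Hochberg adjusted p = 0.10 over the 5). All 5 comparisons share the Bgn values, which already separated the genotypes, so they are not independent of each other or of the Bgn call. Neighbouring genes were compared by the root mean square difference of their centred log2 values over the 6 arrays. Prelp and Fmod, neighbours on chromosome 1, differed by 0.82, and the paired Dcn probes by 0.70. This distance also depends on how far each probe ranged, so the values are not directly comparable. Within Olig2_null the range was 2.03 for Prelp and 3.19 for Fmod, against 5.79 and 4.36 for the Dcn probes. Omd and Ogn, neighbours on chromosome 13, differed by 1.80. Some genes on different chromosomes lay closer than these neighbours. Omd lay 0.54 from Fmod and 0.63 from Prelp, and Ogn lay 1.46 from the brighter Dcn probe. Omd and Fmod were dim, and Omd, Fmod and Prelp were each highest in Olig2_null replicate 1. None of these distances allows for the range of the probes, so a small one need not mean likeness. Bgn lay 1.41 from Omd and 3.20 from Dcn.

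**Figure D2:**
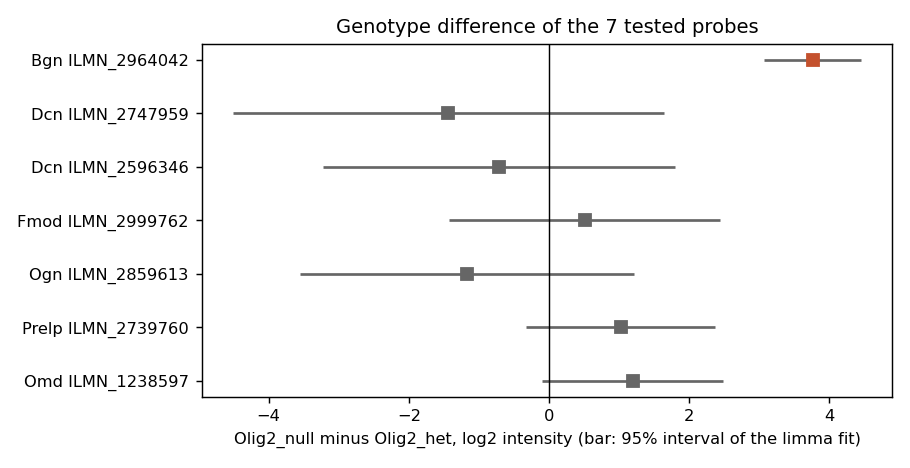
Difference between the genotypes (x axis, Olig2_null minus Olig2_het, log2 intensity) for the 7 tested probes, with the 95% interval of the fit as a bar and the probe past the threshold in colour. The interval for Bgn, 3.07 to 4.45, lies apart from 0, and those of the other 6 probes include 0.

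The enzymes that build the chains of biglycan and decorin were mixed, with some rising. Of the 13 tested genes out of 22 listed for the linker and the chondroitin or dermatan sulfate chain, 2 rose, none fell and 11 did not pass, with a median difference of 0.35 (against 0.0028 over all 9998 genes tested, of which 4.78% were called, 2.83% higher and 1.95% lower). Fam20b, the kinase that phosphorylates the linker xylose, rose 3.07-fold, from 7.64 ± 0.17 to 9.26 ± 0.30 (SD, n = 3, limma adjusted p = 0.0265). Chsy1, a chondroitin synthase, rose 4.13-fold, from 10.63 ± 0.46 to 12.68 ± 0.36 (SD, n = 3, adjusted p = 0.0275), and its other probe also passed (1.75, adjusted p = 0.0408). The probes of Dse and Dsel, the epimerases that make dermatan sulfate, were not detected on any array. None of the 4 tested keratan sulfate enzymes of 6 listed passed in limma (3 had an unadjusted p under 0.05, 1 higher and 2 lower, where 25.3% of all tested probes had one, 12.2% higher and 13.1% lower). The sulfotransferase gene Chst2 differed by 1.22 and Chst5 by -1.30 (adjusted p = 0.0602 and 0.0976). For 7 of the 9 further family genes that were listed (Epyc, Kera, Podn, Podnl1, Nyx, Optc and Ecm2) a probe was named, and it was not detected on any array.

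Compared with Olig2_het, 11 protease genes had a higher Olig2_null mean and 1 a lower one, most without passing. Among fibrillar matrix partners 9 lay above and 4 below, also mostly without passing. Over all 9998 tested genes, 50.2% had a higher Olig2_null mean, 2.83% rose past the threshold and 1.95% fell. Of 12 tested proteases of 14 listed, 2 rose and none fell, with a median of 1.00. Mmp14, a membrane-bound collagenase that activates Mmp2, rose 6.02-fold (adjusted p = 0.0172 in limma), and the gelatinase Mmp2 rose 13.3-fold (adjusted p = 0.0404), reading 12.03, 12.78 and 9.80 in Olig2_null against at most 8.03 in Olig2_het. The Mmp2 call was lost with no background correction (3.13, adjusted p = 0.0612) and when undetected probes were kept (adjusted p = 0.0882). Bmp1, the protease known to remove the biglycan propeptide, differed by 0.25 ± 0.47 (SE, adjusted p = 0.793). Of 13 tested fibrillar matrix partners of 23 listed, 1 rose and 1 fell, with a median of 1.23. The gene that rose was Loxl1, an oxidase that crosslinks elastin, at 16.2-fold (adjusted p = 0.0172), and the gene that fell was the matrilin gene Matn4, at 4.48-fold lower (adjusted p = 0.0370), with 1 of its other 2 probes also past the threshold (adjusted p = 0.0412 and 0.0927).

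Receptors and growth factors linked to biglycan and decorin included 2 genes that rose among 18 tested of 25 listed, and none fell (median 0.99). Of the 18, 14 had a higher Olig2_null mean and 4 a lower one, and 2.83% of all tested genes rose past the threshold. Tlr4, the innate receptor of soluble biglycan, was not detected in any Olig2_het tumour, where it read 5.39, 5.33 and 4.87, and read between 7.31 and 8.74 in the 3 Olig2_null tumours. It was at least 6.41-fold higher there (limma adjusted p = 0.0182), but with no background correction its difference was 1.23 in place of 2.82 and did not pass (adjusted p = 0.0540). Tlr2 differed by 0.79 (adjusted p = 0.439). Tgfbr2, the TGF-beta type II receptor, rose 4.51-fold (adjusted p = 0.0322), and its other probe did not pass (1.65, adjusted p = 0.0718). These calls depend on single tumours: 26 genes named here from outside the family passed. Leaving out Olig2_het replicate 1, 2 or 3 kept 1, 0 or 3 of those calls, and leaving out Olig2_null replicate 1, 2 or 3 kept 21, 11 or 26. With no background correction, and equally from the authors' values, 18 of the 26 calls were kept, and those lost were Mmp2, Tlr4, Col15a1, Rgs5, Tie1, Ms4a7, Clca2 and Sucnr1. Keeping undetected probes in the fit left 15 calls, without Chsy1, Mmp2, Matn4, Tgfbr2, Col15a1, Rgs5, Esam, Ms4a7, Opalin, Enpp6 and Cnp, and cyclic loess left 23, without Rgs5, Esam and Ms4a7.

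**Figure D3:**
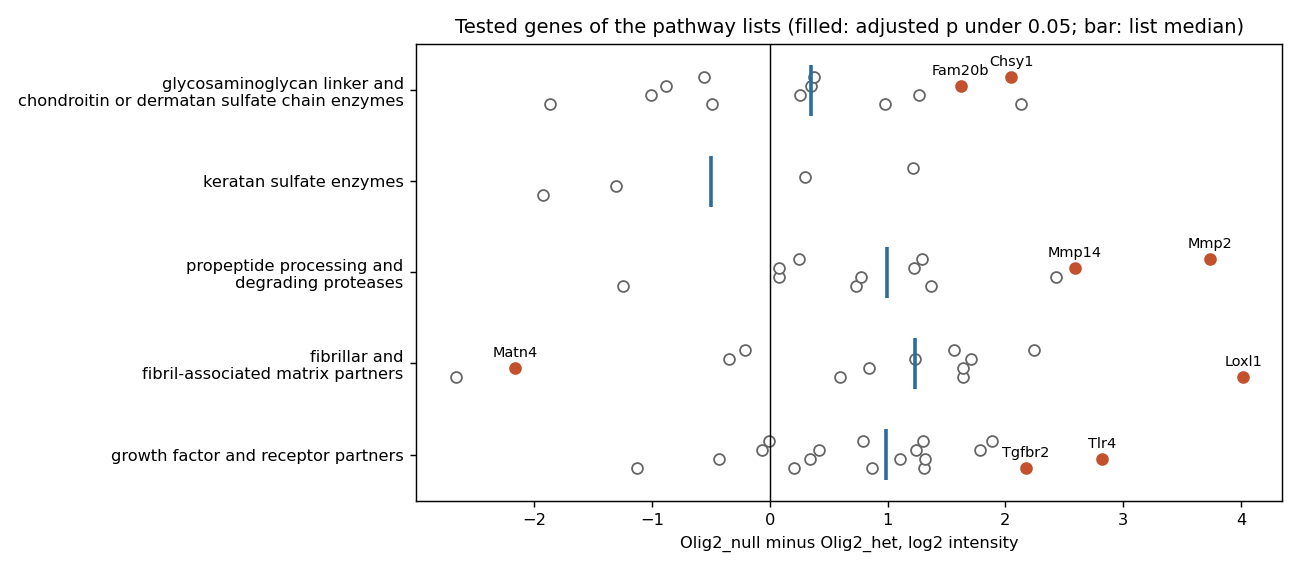
Genotype difference (x axis, Olig2_null minus Olig2_het, log2 intensity) of each tested gene of 5 pathway lists, filled where the adjusted p was under 0.05, with the list median as a bar. Loxl1 and Mmp2 lie farthest to the right and Matn4 is the filled point on the left.

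The summed signal of vessel markers was higher in every Olig2_null tumour than in any Olig2_het tumour, while that of fibroblast markers overlapped. This separation was not particular to vessel markers. The sums of the protease, matrix partner, growth factor, chain enzyme and macrophage lists were also higher in every Olig2_null tumour. So were those of cartilage or bone markers, at 613 to 1042 in Olig2_het and 2529 to 6236 in Olig2_null. A sum is weighted towards the brightest genes. The chain enzyme mean, in log2 relative to the Olig2_het mean, overlapped, at -0.038 in Olig2_null replicate 2 and 0.098 in Olig2_het replicate 2. Of 12 tested endothelial markers, 9 had a higher Olig2_null mean and 3 a lower one (median 1.24). Past the threshold 4 rose and none fell, where 2.83% of all 9998 tested genes rose and 1.95% fell. Emcn (8.33-fold higher) and Pecam1 (5.86-fold higher), both surface proteins of endothelium, rose (both with limma adjusted p = 0.0146). So did Esam, an adhesion molecule of tight junctions, at 2.95-fold (adjusted p = 0.0450). Tie1, an angiopoietin co-receptor seen above background on 1 Olig2_het array, rose 3.05-fold (adjusted p = 0.0295). With no background correction the Tie1 difference was 0.54 in place of 1.61 and did not pass (adjusted p = 0.0710). The summed signal of the endothelial list ran from 3955 to 6162 in Olig2_het and from 9200 to 15424 in Olig2_null. Of 10 pericyte and smooth muscle markers, 7 had a higher Olig2_null mean and 3 a lower one (median 1.06). The 1 that rose was Rgs5, at 6.57-fold (adjusted p = 0.0457). The sums were 2344 to 3039 in Olig2_het and 5486 to 10923 in Olig2_null, and no array detected the Tagln probe. The Rgs5 call was lost with no background correction (adjusted p = 0.0615), with cyclic loess (0.0551) and when undetected probes were kept (0.0961), which left no pericyte marker past the threshold. Of 18 meningeal or perivascular fibroblast markers, 1 rose, the basement membrane collagen gene Col15a1, not detected in Olig2_het and at least 4.25-fold higher (adjusted p = 0.0467, median 0.39). With no background correction its difference was 1.06 in place of 2.61 and did not pass (adjusted p = 0.123). Gjb2, of the same list, was lower in Olig2_null. Its brighter probe differed by -2.35 (limma adjusted p = 0.0602). Its other probe differed by -1.60 and was past the threshold (adjusted p = 0.0467). Of the 18 fibroblast markers, 11 had a higher Olig2_null mean and 7 a lower one. The fibroblast sums, 8413 to 23607 and 18016 to 25431, overlapped, and the Col1a2 and Dpep1 probes were not detected on any array. The part of these cells in the Bgn difference was not tested.

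Macrophage markers were highest in Olig2_null replicate 1, the tumour in which Bgn, Prelp, Omd and Fmod were also highest. The means of the endothelial, protease, growth factor and chain enzyme lists were highest in that tumour as well. Of 9 tested microglia or macrophage markers, 2 rose (median 1.16), where 2.83% of all tested genes rose. The lysozyme gene Lyz2 rose 5.11-fold and Ms4a7 14.1-fold (limma adjusted p = 0.0146 and 0.0467). A further probe of Lyz2 missed the threshold (1.97, adjusted p = 0.0580), and Ms4a7 lost its call with no background correction (2.45 in place of 3.82, adjusted p = 0.103) and with cyclic loess (adjusted p = 0.0515). Relative to the Olig2_het mean the macrophage list averaged 2.68, 0.94 and 0.99 in Olig2_null replicates 1 to 3 and between -0.36 and 0.25 in Olig2_het. Its sums were 3546 to 6025 in Olig2_het and 9685 to 25410 in Olig2_null.

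Neuron and oligodendrocyte markers were lowest in Olig2_null replicate 1 and nearest to the Olig2_het level in replicate 3, the order in which Dcn lay. All 10 tested neuron markers were lower in the mean of Olig2_null and none passed in limma (7 had an unadjusted p under 0.05, against 13.1% of all tested probes that were lower at that level), with Snhg11 at -3.76 and Syt1 at -4.09 (adjusted p = 0.0564 and 0.0884). Without Olig2_null replicate 3, the one most like the Olig2_het tumours, 8 of the 10 fell, with a median of -4.06 in place of -3.02. Without Olig2_null replicate 1 none passed and the median was -1.74. The neuron list averaged -5.36, -2.68 and -0.85 in Olig2_null replicates 1 to 3, and its sums were 37046 to 85205 in Olig2_het and 1504 to 34368 in Olig2_null. Of 8 tested oligodendrocyte markers, 3 fell (Opalin, Enpp6 and Cnp), where 1.95% of all tested genes fell. The list averaged -5.11, -4.19 and -1.41 in Olig2_null replicates 1 to 3. Its sums were 63559 to 70378 in Olig2_het and 2415 to 48014 in Olig2_null. All 8 fell without Olig2_null replicate 3, 2 without Olig2_null replicate 1, and 0 passed when Olig2_null replicate 2 or any 1 Olig2_het tumour was left out or undetected probes were kept. The Snap25 and Nefl probes were not detected on any array although other neuron markers were bright, so an undetected probe here does not show that its transcript was absent. None of 8 astrocyte markers passed in limma (2 had an unadjusted p under 0.05, near the 25.3% of all tested probes), with Gfap at 1.63 and Aqp4 at -1.31 (adjusted p = 0.0860 and 0.120). None of 7 cartilage or bone markers passed (4 had an unadjusted p under 0.05, 3 higher and 1 lower, against 12.2% and 13.1% of all tested probes), with Col9a1 at 1.86 and Matn1 at -2.66 (adjusted p = 0.0620 and 0.0628). Whether these cell types contributed to the values of Bgn, Dcn, Prelp, Omd and Fmod was not tested.

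**Figure D4:**
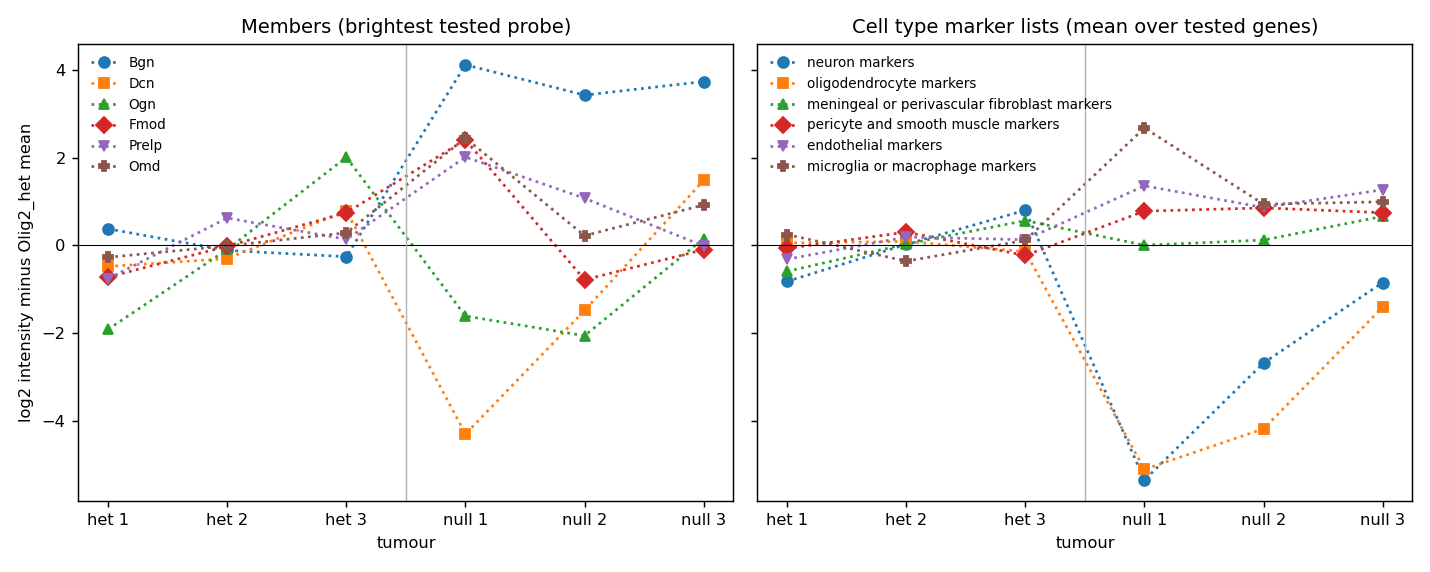
Log2 intensity relative to the Olig2_het mean (y axis) in each tumour (x axis) for the brightest tested probe of 6 family genes (left) and for the mean of 6 marker lists (right), with dotted lines that only guide the eye. Bgn is high in all 3 Olig2_null tumours, while Dcn and the neuron list are both lowest in Olig2_null replicate 1.

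The genes whose 6 values lay closest to the Bgn profile were Eva1b, Gpc4, Fzd1, Clca2, Fstl1, Emcn, Sucnr1 and Hs3st3a1, in that order. Each was centred on its own mean, and the root mean square difference from Bgn over the 6 arrays ran from 0.27 for Eva1b to 0.49 for Hs3st3a1. They were picked for this likeness, so their differences are given as a description. Eva1b read 8.09, 8.04 and 7.81 in Olig2_het and 11.84, 10.77 and 11.51 in Olig2_null. Gpc4, a glypican carrying heparan sulfate, read 5.66, 4.60 and 4.97 against 8.84, 7.76 and 8.68, and was detected on 1 Olig2_het array. Clca2 (4.55 to 5.17) and Sucnr1 (4.59 to 5.01) lay below the lowest detected signal on every Olig2_het array, so their Olig2_het values are floor. Hs3st3a1, a heparan sulfate sulfotransferase, read 6.98, 7.46 and 7.61 against 10.73, 10.85 and 10.56. Fzd1 is a Wnt receptor, Fstl1 a secreted follistatin-like protein and Sucnr1 the succinate receptor. The 8 genes lie on 6 chromosomes, and 1 of them, Gpc4, shares the X chromosome with Bgn.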

How the data were processed

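The authors deposited linear intensity values for each probe, before normalization, with a detection p-value beside each signal, per the file headers. The authors' other deposited table of intensity values equalled the quantile-normalized signals within 0.1%, with numbers 1 and 3 exchanged in 4 of 6 columns. The scanner software is not given in the sources used here. Here signals were background-corrected (normexp, controls inferred from detection p-values, offset 16), quantile-normalized and log2-transformed with neqc (limma 3.58.1, R 4.3.3). Probes detected on at least 3 of 6 arrays (14606) were fitted with genotype as the only term (lmFit and eBayes in limma, two-sided), with Benjamini-Hochberg adjustment over all of them and a threshold of 0.05. The number of arrays limits the precision.

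Of 25697 probes, 23978 had 1 symbol, 0 several and 1719 none here, and current symbols were found for 23962 through the RefSeq gene table (GRCm38.p6), used for names and neighbours only. A listed gene was represented by its brightest tested probe. Where no array of a group detected a probe, the fold is a bound, against the higher of its value and the lowest detected signal per array. Family genes and gene lists were chosen with earlier results of these data known. Named outside the family were Olig2 and the 8 genes closest to Bgn. Of each list, up to 4 genes past the threshold were named, else up to 2 with the smallest p. Bmp1, Tlr2, Dse, Dsel, Gjb2, genes compared with Ogn, Dcn and Omd, and the undetected markers were chosen after their values were seen. The fit was tested on simulated data. Alternatives were no background correction, the authors' values, cyclic loess, other detection filters, array weights, a replicate block and leaving out each tumour.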

Additional observations from a re-analysis of the deposited data

How the results depend on the processing

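Bgn kept its direction in all 13 alternatives and its call in 12, with a difference of 3.58 to 3.95 when 1 tumour was left out. Of the 13, the authors' values gave the same fit as no background correction (3.62 for Bgn) and are not a separate check. Among the other tested family probes, leaving out 1 tumour turned the direction of ILMN_2596346 of Dcn (-2.02 to 0.16) and of ILMN_2999762 of Fmod (-0.44 to 1.15), both when Olig2_null replicate 1 was left out. The number of family probes past the threshold, 1, was 0 to 2 when a tumour was left out. Over all probes, 645 passed, but 411 both without background correction and from the authors' values, 230 when undetected probes were kept, 1860 under array weights, 1382 under the replicate block, and 9 to 1922 when 1 tumour was left out. Of these calls 60% were higher in Olig2_null, against 43.4% with the block, 70.1% among probes detected on all arrays and 44.4% without Olig2_null replicate 3. Of the listed genes 19 passed, but 8 when undetected probes were kept, 42 under array weights, 35 under the replicate block, and 0 to 50 when 1 tumour was left out. The cause of these changes was not tested, although leaving out a tumour and the stricter filter also leave fewer samples or probes. Same-numbered tumours deviated from their group means with correlations of 0.19, 0.017 and 0.30, against -0.30 to 0.10 between tumours of unlike number. The same-numbered values were thus the higher ones on the whole, although not every tumour correlated best with its own number. Equal numbers share a labelled age, but the labels state no pairing. The main fit therefore held genotype only, and the replicate block was kept as an alternative. The adjusted p of Bgn was 0.0190 with the replicate block. Values near the detection floor (Lum, Aspn, Chad, and most of Ogn, Fmod and Omd) carry little order.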

Other observations

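The genes closest in profile to Ogn and Dcn were not among the 8 closest to Bgn. The brightest Ogn probe was detected on 2 Olig2_het arrays and 1 Olig2_null array, so part of its profile lies near the floor. Over the 6 arrays, the 8 genes closest to it were Strip2, Slc6a13, Slc47a1, Baiap2, Kcna1, Cnksr2, Neu2 and Osbp2. Of these, Slc6a13 and Slc47a1, transporter genes of meningeal fibroblasts, are on the fibroblast list, at root mean square differences of 0.43 and 0.44. Slc6a13 read 5.65, 7.56 and 8.98 in Olig2_het and 4.87, 5.01 and 7.78 in Olig2_null, and Slc47a1 read 5.26, 7.55 and 9.20 against 4.79, 5.64 and 7.66. Both were, like Ogn, highest in Olig2_het replicate 3 and, within Olig2_null, in replicate 3. Their differences between genotypes, -1.51 and -1.31, did not pass (limma adjusted p = 0.417 and 0.506). Other genes of the fibroblast list went the other way, among them Col15a1 (2.61), Mgp (2.45) and Foxc1 (2.03), and the list median was 0.39.

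The profile of Dcn lay closest to Rasgef1c (0.34), Plin4 (0.47) and the apolipoprotein gene Apod (0.53), which read 9.21, 11.12 and 13.53 in Olig2_null replicates 1 to 3. That of Omd lay closest to the B cell and myeloid kinase gene Btk (0.18) and to Gimap5 (0.18), a gene of lymphocytes, although SCID mice lack mature T and B cells. Omd was detected on only 1 Olig2_het array and most of its values were near the floor. Its likeness therefore rests mainly on the high value in Olig2_null replicate 1. Btk read 9.13, 6.97 and 7.44 in Olig2_null and 6.71 to 6.84 in Olig2_het. These genes were picked for likeness over 6 values, so the distances are descriptions.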
